A study of Mus musculus with 6 samples.

Results

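The lymphocyte activation antigen Cd69 and 6 genes of lymphocyte egress and homing were followed across mouse leukaemias with and without Cdh1. They were S1pr1, S1pr4, Klf2, Ccr7, Cxcr4 and Cxcr5, making 7 of the 18193 genes on the array. A probe set is the group of short array probes that reads 1 transcript. A gene qualified through probe sets that the platform annotation ties to its symbol alone, and the brightest over the 6 arrays was to stand for it. Each of the 7 genes had exactly 1 such probe set, so no choice between probe sets was needed. The genes were chosen by results of this comparison: Cd69 was selected on its difference between the groups, and the others with their values known. Their values are therefore described without a test.

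The study compared 2 groups of N-myc-driven B-cell acute lymphoblastic leukaemia in C57BL/6 mice, with 3 arrays each. Donors of both groups were littermates homozygous for a conditional gene-trap allele of Cdh1 (Cdh1f/f). The mouse gene for this Cdh1, a coactivator of the anaphase-promoting complex, is Fzr1. Cdh1-deficient donors also carried Mx1-Cre and Cdh1-intact donors lacked it. Both groups received pIpC, which switches on the interferon-responsive Mx1 promoter, at 7 to 8 weeks of age. Marrow mononuclear cells were collected 4 weeks after the last dose, 2 days after 150 mg/kg of 5-fluorouracil. N-myc was carried by the retroviral vector pMXs-IG. RNA came from marrow cells of moribund mice, sorted for the GFP of the vector. Mx1-Cre acts in interferon-responsive cells generally and not in B cells alone. No source used here says whether each leukaemia arose from a separate transduction. The arrays of a group may therefore not be independent, and the standard errors may be too small.

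CD69 appears on the lymphocyte surface soon after activation. It binds the sphingosine 1-phosphate (S1P) receptor S1P1 in the same cell and removes it from the surface, so activated cells stay in the tissue. S1P1, encoded by S1pr1, guides lymphocytes out of tissue towards S1P in blood and lymph, and the transcription factor KLF2 drives its gene. Chemokine receptors set where lymphocytes settle. CXCR4 holds B-cell precursors in the marrow through CXCL12, CCR7 leads cells to the T-cell zone of lymph nodes, and CXCR5 leads B cells to follicles.

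Cdh1-intact array 2 stood apart and its transcripts went against the B-cell label. Values are log2 levels made with RMA, a method that corrects background, aligns the arrays and summarizes each probe set. Of 12 B-lineage markers 11 were measured, and their mean was 4.83 on this array against 8.44 to 9.24 on the other 5. Cd79b lay at 4.35 there and at 11.60 to 12.47 elsewhere. Of 19 T and NK cell markers 18 were measured, with a mean of 8.02 on this array, 5.98 on Cdh1-intact array 3 and between 4.78 and 4.85 on the others. Neutrophil markers averaged 5.83 on this array and 8.66 to 10.83 elsewhere. Its correlation with the other arrays across genes was 0.933 to 0.945, and the other 5 correlated at 0.979 to 0.993 among themselves, where genes are not independent replicates. Values of the 7 genes and of the lists are therefore given with and without this array. Cdh1-intact array 1 had the female-specific transcript Xist at 6.75, against 12.58 to 13.17 elsewhere. Fzr1 lay at 8.04 to 8.92 in Cdh1-intact cells and at 7.73 to 8.22 in Cdh1-deficient cells, with overlap. No source used here places its probes relative to the trap, so this does not check the labels.

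Cd69 was the gene of this set that divided the groups. It lies on chromosome 6, from 129267324 to 129275375 in RefSeq's GRCm38.p6 annotation, the source of all positions here, within the natural killer gene complex. Cdh1-intact cells read 9.93, 10.24 and 8.46 (arrays 1, 2 and 3, log2) and Cdh1-deficient cells 6.09, 6.08 and 5.61, and this order of arrays is kept throughout. Every Cdh1-intact array lay above every Cdh1-deficient array, with Cdh1-intact array 3 the lowest of its group. All Cdh1-deficient arrays lay below all Cdh1-intact arrays for 5.09% of all genes. The means were 9.55 ± 0.95 and 5.93 ± 0.27 (SD, n = 3 each), a log2 difference of -3.62 (SE 0.48), or 12.3-fold. Without Cdh1-intact array 2 the difference was -3.27 (SE 0.44), or 9.64-fold. These arrays measure bulk RNA, in which fewer cells of a type and less RNA per cell cannot be told apart. T and NK cells can also carry CD69. On Cdh1-intact array 1 the T and NK list mean was 4.81, beside 4.78 to 4.85 on the Cdh1-deficient arrays, while Cd69 lay at 9.93. The T-cell receptor gene Cd3g lay at 3.25 on that array and at 3.31 to 3.52 on the Cdh1-deficient arrays, and Cd3d at 6.10 against 5.09 to 5.41. The list mean joins genes that went both ways. Thy1 was lower on that array, at 3.75 against 6.67 to 8.34, and Cd2 was higher, at 10.51 against 8.88 to 9.74. Cd2 lay at 8.88 to 10.74 on all 6 arrays, also where Cd3g lay at 3.25 to 3.52, so it did not follow Cd3g. The counts of lower and of separated markers that follow include Cd2. Of the 18 T and NK markers 15 were lower in Cdh1-deficient cells, beside 49.1% of all genes, and 7 lay below every Cdh1-intact array. Their median difference was -0.995, or -0.33 with 14 lower without Cdh1-intact array 2. The part of T and NK cells in the Cd69 values was not tested.

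**Figure D1:**
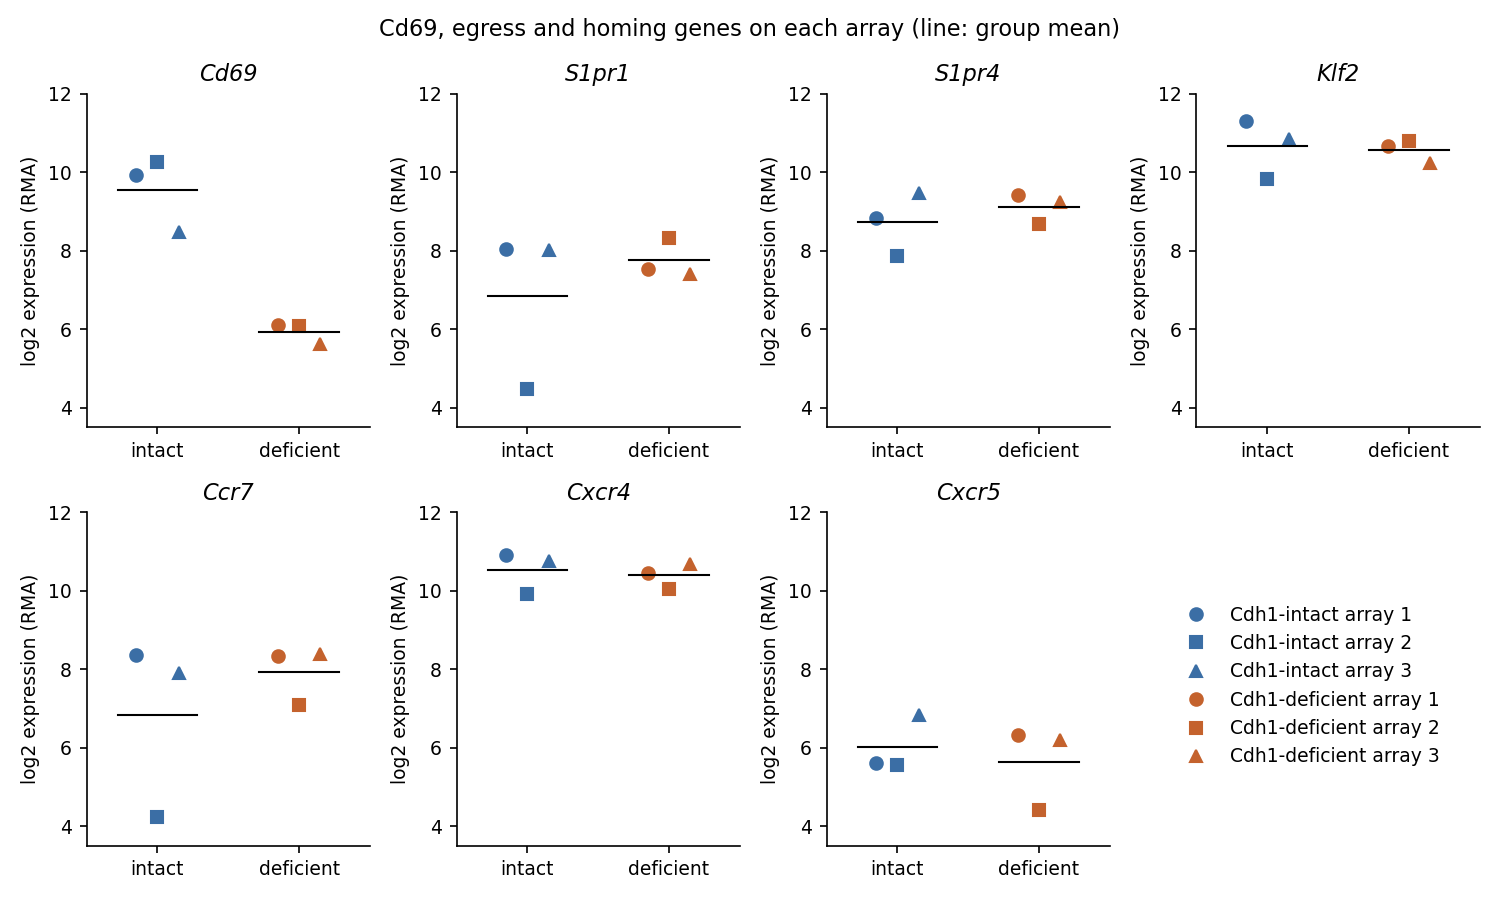
Log2 expression (RMA, vertical axis) of the 7 genes on each of the 6 arrays, with Cdh1-intact arrays in blue and Cdh1-deficient arrays in orange; symbols mark the array number and lines the group means. Cd69 lies at 8.46 to 10.24 in Cdh1-intact and 5.61 to 6.09 in Cdh1-deficient cells, while S1pr1 and Ccr7 are low on Cdh1-intact array 2 alone.

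S1pr1, the receptor that CD69 removes from the cell surface, did not divide the groups. It lies on chromosome 3, from 115710433 to 115715055. In Cdh1-intact cells the log2 level was 8.05, 4.48 and 8.01, and in Cdh1-deficient cells it was 7.52, 8.33 and 7.40. Cdh1-intact array 2 was low and the other 5 arrays lay within 7.40 to 8.33, with the groups overlapping. The means were 6.84 ± 2.05 and 7.75 ± 0.50 (SD, n = 3 each), a difference of 0.91 (SE 1.01). Without Cdh1-intact array 2 it turned to -0.28 (SE 0.30). The transcript level does not show how much S1P1 protein was at the surface.

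S1pr4, an S1P receptor found mainly on blood and lymphoid cells, lies on chromosome 10, from 81497745 to 81500137. The Cdh1-intact arrays read 8.83, 7.86 and 9.45 (log2), and the Cdh1-deficient arrays read 9.41, 8.69 and 9.25. Cdh1-intact array 2 was again the lowest, and the groups overlapped. The difference was 0.40 (SE 0.43), or -0.03 (SE 0.29) without that array. The other S1P receptor genes S1pr2, S1pr3 and S1pr5 differed by 0.07 (SE 0.13), 0.03 (SE 0.16) and 0.05 (SE 0.16), or 0.02, 0.09 and 0.03 without Cdh1-intact array 2. S1pr3 and S1pr5 lay at 3.41 to 4.40 on all arrays, near the floor of the measurement.

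Klf2, whose product drives S1pr1 and other homing genes in resting lymphocytes, showed little difference between the group means. It lies on chromosome 8, from 72319062 to 72321654. Log2 levels in Cdh1-intact cells were 11.29, 9.82 and 10.84 and in Cdh1-deficient cells 10.67, 10.78 and 10.22. Cdh1-intact array 1 was the highest and Cdh1-intact array 2 the lowest, so the Cdh1-deficient arrays lay inside the Cdh1-intact range. The means were 10.65 ± 0.75 and 10.56 ± 0.30 (SD, n = 3 each), a difference of -0.09 (SE 0.39). Without Cdh1-intact array 2 the difference was -0.51 (SE 0.23), and both remaining Cdh1-intact arrays lay above all Cdh1-deficient arrays.

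MEF2 factors, which act below the kinase ERK5, are known regulators of Klf2. The Klf2 promoter is shown because it holds their recognition letters and because a MEF2 gene was low on the array where Klf2 was lowest. The 250 bases before the RefSeq start (GRCm38.p6) follow, with capitals marking the MEF2 letters.
Klf2 promoter, chr8:72318812-72319061, plus strand: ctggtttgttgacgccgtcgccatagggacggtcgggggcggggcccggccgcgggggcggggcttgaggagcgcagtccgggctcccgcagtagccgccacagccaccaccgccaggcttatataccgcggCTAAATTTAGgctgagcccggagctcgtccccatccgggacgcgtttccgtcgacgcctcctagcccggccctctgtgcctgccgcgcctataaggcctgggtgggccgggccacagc
This palindrome of the half-site CTAAA, CTAAATTTAG, lay 118 to 109 bases before the start, and 13 of 32851 promoter windows of this length held it on either strand (0.0396%). It reads alike on both strands and overlapped no other motif searched. The window also held 2 GC boxes (GGGCGG, present in 32.7% of windows). A match describes letters and not a bound site. Mef2c, a MEF2 gene of B cells, read 3.39 on Cdh1-intact array 2, and its other values were 8.63 to 9.87. Mef2d lay at 9.63 there and 10.68 to 11.11 elsewhere, and the ERK5 gene Mapk7 at 6.82 and 7.31 to 7.48. For both Mef2d and Mapk7 all Cdh1-deficient arrays also lay above all Cdh1-intact arrays, beside 6.65% of all genes. Map2k5, another gene of the KLF and FOXO regulators below, lay at 8.95 there and 8.86 to 9.07 elsewhere. Whether these levels have a part in the Klf2 value of that array was not tested.

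Ccr7, the receptor for CCL19 and CCL21, followed the same outline as S1pr1. It lies on chromosome 11, from 99144199 to 99155077. In Cdh1-intact cells the log2 level was 8.36, 4.23 and 7.89, and in Cdh1-deficient cells it was 8.34, 7.08 and 8.38. Cdh1-intact array 2 lay far below the rest, Cdh1-deficient array 2 was the next lowest, and the groups overlapped. The means were 6.83 ± 2.26 and 7.93 ± 0.74 (SD, n = 3 each), a difference of 1.11 (SE 1.13). Without Cdh1-intact array 2 it turned to -0.19 (SE 0.44).

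Cxcr4, the receptor for CXCL12, varied least among the 7 genes, with a range of 0.99 over the arrays. It lies on chromosome 1, from 128588199 to 128592299. The Cdh1-intact arrays read 10.90, 9.91 and 10.75 (log2), and the Cdh1-deficient arrays read 10.44, 10.05 and 10.68. The array numbered 2 was the lowest of each group, and the groups overlapped. The difference was -0.13 (SE 0.31), or -0.44 (SE 0.21) without Cdh1-intact array 2. The remaining Cdh1-intact arrays, at 10.75 and 10.90, then lay above all Cdh1-deficient arrays. Its promoter is shown as that of the marrow retention receptor that every array carried, and capitals mark the letters known for the factor NRF1.
Cxcr4 promoter, chr1:128592300-128592549, minus strand: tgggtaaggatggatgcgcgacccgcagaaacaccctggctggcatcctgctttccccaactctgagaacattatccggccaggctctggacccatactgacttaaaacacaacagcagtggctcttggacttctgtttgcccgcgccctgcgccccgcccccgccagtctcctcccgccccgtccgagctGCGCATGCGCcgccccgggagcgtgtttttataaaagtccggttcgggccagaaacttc
GCGCATGCGC lay 59 to 50 bases before the start, and 257 of 32851 windows held it (0.782%). The window also held 3 GC boxes on the other strand, the nearest of which overlaps the NRF1 letters by a base. TATAAA was present on each strand between 32 and 25 bases before the start, in overlap with itself, and 12.4% of windows held it. S1pr4, the third gene of the 7 with a promoter in the table, held none of these 4 motifs in the window.

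Cxcr5, the receptor for CXCL13 on B cells, varied within both groups. It lies on chromosome 9, from 44511787 to 44526444. Log2 levels in Cdh1-intact cells were 5.60, 5.56 and 6.84 and in Cdh1-deficient cells 6.31, 4.41 and 6.19. Cdh1-intact array 3 was the highest and Cdh1-deficient array 2 the lowest, with the groups overlapping. The difference was -0.36 (SE 0.62), or -0.58 (SE 0.68) without Cdh1-intact array 2. The sign turned to 0.05 (SE 0.63) without Cdh1-intact array 3 and to 0.25 (SE 0.44) without Cdh1-deficient array 2.

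Over the set, 4 of the 7 genes had a lower mean in Cdh1-deficient cells, beside 49.1% of all genes. The median difference was -0.09, against 0.0034 over all genes. Without Cdh1-intact array 2 all 7 were lower, with a median of -0.44, beside 49.2% of all genes and a median of 0.0035. Apart from Cd69 these differences ran from -0.58 to -0.03, with SEs from 0.21 to 0.68. The direction for S1pr1, S1pr4 and Ccr7 thus rested on an array whose B-lineage markers were low and whose T and NK markers were high. The part of those cell types in each value was not tested.

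**Figure D2:**
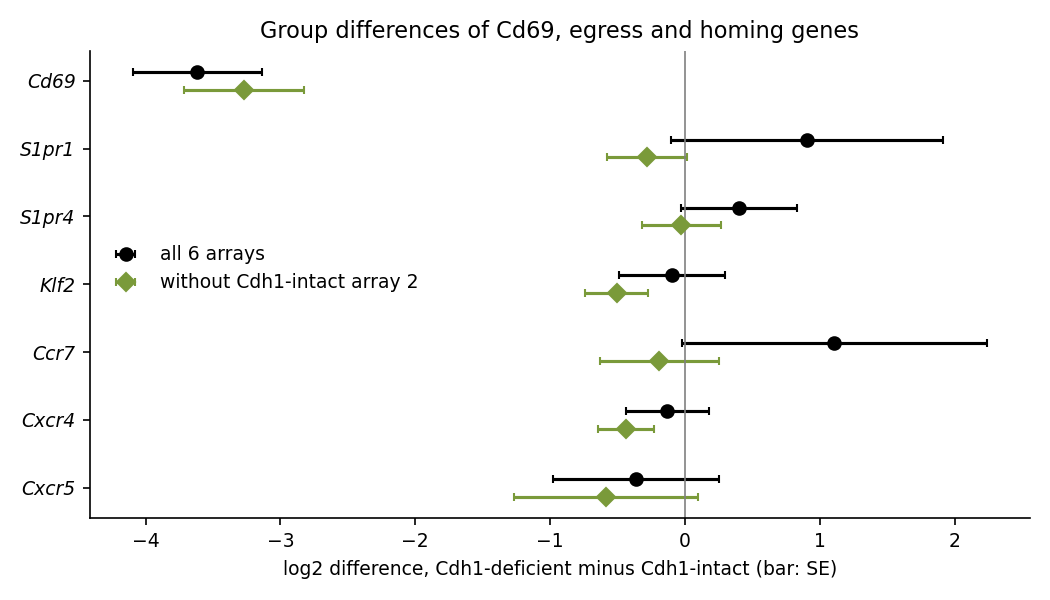
Log2 differences (horizontal axis, Cdh1-deficient minus Cdh1-intact) of the 7 genes with moderated standard errors, from all 6 arrays (black) and without Cdh1-intact array 2 (green). Cd69 stays at -3.27 without that array, while S1pr1 and Ccr7 move from 0.91 and 1.11 to -0.28 and -0.19.

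Other genes followed the arrays in much the way Cd69 did. Likeness was Pearson's r over the 6 arrays among 2866 genes at or above the median level with a range of at least 1. Predicted or unnamed genes, such as those with Gm or Rik symbols, were left out, so closer ones among them would not show. Cd69 falls into 2 separate groups of arrays, so r here mostly ranks genes by the group difference, and no relation within groups was tested. The 10 closest were Dusp2, Tob2, Irf1, Tespa1, Cep97, Nenf, Fosb, Cers4, Rgs2 and Zfp800, with r from 0.945 to 0.983. Dusp2 and Fosb also belong to the early response list, and the differences of all 10 were negative. Dusp2, a nuclear phosphatase that switches off MAP kinases, read 10.85, 11.23 and 10.06 in Cdh1-intact cells and 9.44, 9.41 and 9.03 in Cdh1-deficient cells. Its arrays stood in the same order as those of Cd69, as did those of the antiproliferative gene Tob2 and of Irf1, an interferon-induced transcription factor. Tespa1, which takes part in antigen receptor signalling of thymocytes, lay at 8.46, 8.73 and 7.30 against 6.67, 6.69 and 6.52. Rgs2, a brake on G protein signalling, lay at 11.86, 11.80 and 9.77 against 8.34, 9.40 and 7.58. In all of Dusp2, Tob2, Irf1, Tespa1 and Rgs2 Cdh1-intact array 3 was the lowest of its group, as it was for Cd69. Choosing genes by r with Cd69 favours such a shared order, so it is no separate result.

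**Figure D3:**
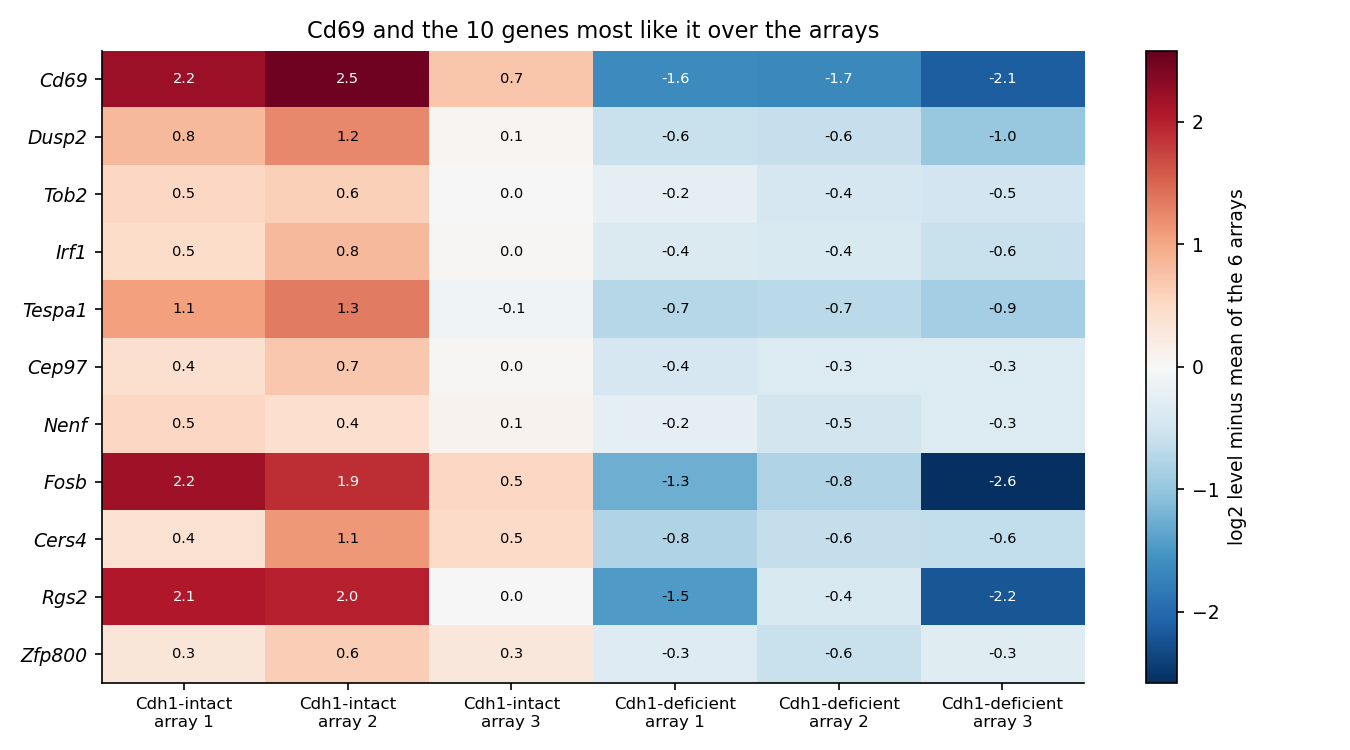
Log2 level minus the gene's mean over the 6 arrays (colour and printed number), with arrays as columns. Rows are Cd69 and the 10 genes with the highest Pearson r to it among the 2866 compared. All 11 genes are higher on Cdh1-intact arrays 1 and 2 than on any Cdh1-deficient array, and Cdh1-intact array 3 is intermediate for most.

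The other 6 genes had other nearest genes. For S1pr1 and Ccr7, Cdh1-intact array 2 lay far from the rest and so weighs heavily in r. The 3 genes most like S1pr1 were Cyria, Igkv8-30 and Ly96 (r = 0.993 to 0.995 over 6 arrays), and those most like Ccr7 were Smim20, Ctsz and Bag2 (r = 0.991 to 0.996). The nearest to S1pr4 were Otub2, Txndc5 and Zfp428 (r = 0.993 to 0.995), and to Klf2 Kcnk6, Arid3a and Myo7a (r = 0.966 to 0.979). For Cxcr4 they were Mgst3, Ell2 and Tubb6 (r = 0.971 to 0.990), and for Cxcr5 Pelo, Znrd1 and Bloc1s5 (r = 0.968 to 0.970). None of the 10 genes most like Cd69 was among them.

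Genes known to act beside Cd69 and its partners were read from 10 lists of 181 genes, of which 165 were measured. The lists were chosen with earlier results of these data known, so their counts are a description and not an independent test. With limma and Benjamini-Hochberg adjustment over all genes, 0 of the 165 passed an adjusted p of 0.05, and 0 of 18193 genes did (0%). At an unadjusted p under 0.05, 15 of the 165 were lower and 4 higher in Cdh1-deficient cells, beside 1.49% lower and 4.01% higher of all genes. Early response genes made up 9 of the 15 and 1 of the 4. The values that follow are therefore differences that did not pass, and the lowest adjusted p of any gene was 0.849 in limma. For the counts in each list below, 49.1% of all genes had a lower mean, or 49.2% without Cdh1-intact array 2. The groups did not overlap for 5.09% of all genes with Cdh1-deficient cells lower and for 6.65% with them higher.

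Of 13 genes that make, break down or export S1P, 5 had lower and 8 higher means in Cdh1-deficient cells, with a median of 0.18. With Cdh1-intact array 2 left out, 6 were lower and the median was 0.02. Sphk2, a kinase that makes S1P, read 6.51, 6.83 and 6.97 in Cdh1-intact cells and 7.32, 7.34 and 7.28 in Cdh1-deficient cells, a difference of 0.55 (SE 0.14). Spns2, an S1P exporter, differed by 0.41 (SE 0.10), and the lipid phosphatase gene Plpp2 by -0.61 (SE 0.15). The groups did not overlap for any of these 3. All Cdh1-deficient arrays lay above all Cdh1-intact arrays for 6.65% of all genes. Without Cdh1-intact array 2 the 3 differences were 0.58, 0.45 and -0.54.

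Of 16 measured genes among the KLF and FOXO regulators, 7 were lower and 9 higher, with a median of 0.12. In the fit that left out Cdh1-intact array 2, 11 of the 16 were lower and the median turned to -0.04. Klf4 and Klf6, relatives of Klf2, differed by -2.67 (SE 0.75) and -1.82 (SE 0.50). Klf6 lay at 10.37, 8.68 and 8.73 against 7.14, 7.91 and 7.26, and Klf4 at 9.99, 8.23 and 8.15 against 6.06, 7.33 and 4.99. Neither overlapped between the groups, with all Cdh1-deficient arrays lower, beside 5.09% of all genes. Without Cdh1-intact array 2 the differences were -2.95 for Klf4 and -2.11 for Klf6. Klf3, which opposes KLF2 at shared sites, read 5.76, 3.95 and 8.68 in Cdh1-intact cells and 8.71, 8.70 and 8.22 in Cdh1-deficient cells. Its groups overlapped at Cdh1-intact array 3, and its difference of 2.42 (SE 1.14) became 1.33 without Cdh1-intact array 2. Foxo1, a transcription factor that supports Klf2, differed by 0.14 (SE 0.18), which turned to -0.03 (SE 0.14) without Cdh1-intact array 2.

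Of 20 measured chemokine receptors outside the set, 13 were lower and 7 higher, beside 49.1% of all genes lower, with a median of -0.06. Of the 20, 0 separated the groups, beside 5.09% (lower) and 6.65% (higher) of all genes. Leaving out Cdh1-intact array 2 left 10 of the 20 lower and a median of -0.0017. Cxcr3, a receptor of effector T and NK cells, read 5.06, 10.26 and 7.18 in Cdh1-intact cells and 5.13, 5.07 and 4.88 in Cdh1-deficient cells. It was high on the arrays with the highest T and NK means, Cdh1-intact arrays 2 and 3, and at 5.06 on Cdh1-intact array 1 beside the Cdh1-deficient arrays. Ccr7 was thus low and Cxcr3 high on Cdh1-intact array 2. Ligands and stromal genes numbered 12, with 7 lower and a median of -0.07, or 7 and -0.05 without Cdh1-intact array 2. Ccl5 had the smallest p of these in limma and lay at 5.08, 7.11 and 5.65 against 4.94, 4.68 and 4.81. Its groups did not overlap, and its difference of -1.13 (SE 0.51) was -0.55 without Cdh1-intact array 2. Cxcl12, the CXCR4 ligand, lay at 4.78 to 5.01 on all arrays, and Cxcl13, the CXCR5 ligand, at 4.88 to 5.09.

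Of 26 genes of receptor desensitization and Gi signalling, 16 were lower and 10 higher, with a median of -0.06. Of the 26, 13 were lower without Cdh1-intact array 2, with a median of -0.03. Rgs2 differed by -2.71 (SE 0.72), or -2.38 without that array. Rgs1, a brake on chemokine and S1P receptor signalling in B cells, lay at 8.48, 5.95 and 7.21 against 4.80, 6.71 and 4.50. Its groups overlapped at Cdh1-intact array 2 and Cdh1-deficient array 2, and its difference of -1.87 (SE 0.83) was -2.51 without Cdh1-intact array 2. Gna12, a G protein alpha subunit, differed by 0.70 (SE 0.26), or 0.48 without Cdh1-intact array 2. The Gi subunit gene Gnai2 lay at 11.10 to 11.55 on all arrays.

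Of 14 homing and adhesion molecules, 9 were lower and 5 higher, with a median of -0.43. The median was -0.12 without Cdh1-intact array 2, with 9 lower. Adgre5, the adhesion receptor CD97, differed by -0.86 (SE 0.21), or -1.06 without that array. Pecam1, an adhesion molecule of leukocytes and endothelium, differed by -1.17 (SE 0.40), or -0.85 without it. Cd47, which restrains uptake by macrophages, lay at 11.33, 11.17 and 10.86 against 10.73, 10.85 and 10.74. The Cd47 groups touched without overlap at 10.86 and 10.85. Of 21 other activation molecules 12 were lower and 9 higher, with a median of -0.08, or 14 lower and -0.13 without Cdh1-intact array 2. Among these Il2ra, the interleukin 2 receptor alpha chain, lay at 3.90 to 4.17 and Cd83 at 3.20 to 4.00 on all arrays, both near the floor. Ifngr1 had the smallest p of this list in limma and lay at 8.86, 10.12 and 8.75 against 8.53, 8.48 and 8.65. Its groups did not overlap, and its difference of -0.69 (SE 0.37) was -0.26 without Cdh1-intact array 2.

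Early response genes, which turn on within minutes of a signal, were mostly lower beside Cd69. Of 22 measured genes 21 were lower in Cdh1-deficient cells, beside 49.1% of all genes. The median was -1.37, or -1.40 without Cdh1-intact array 2. At an unadjusted p under 0.05 in limma 9 were lower and 1, Fosl2, was higher, beside 1.49% and 4.01% of all genes. Fosb, an AP-1 subunit, lay at 10.32, 10.02 and 8.67 against 6.87, 7.35 and 5.55. The mean over the list was 9.89, 9.35 and 8.26 in Cdh1-intact cells and 7.61, 8.51 and 7.20 in Cdh1-deficient cells. On Cdh1-deficient array 2 the list mean of 8.51 lay above that of Cdh1-intact array 3, while Cd69 on that array was 6.08 against 8.46. The part of these genes in the Cd69 value was not tested.

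**Figure D4:**
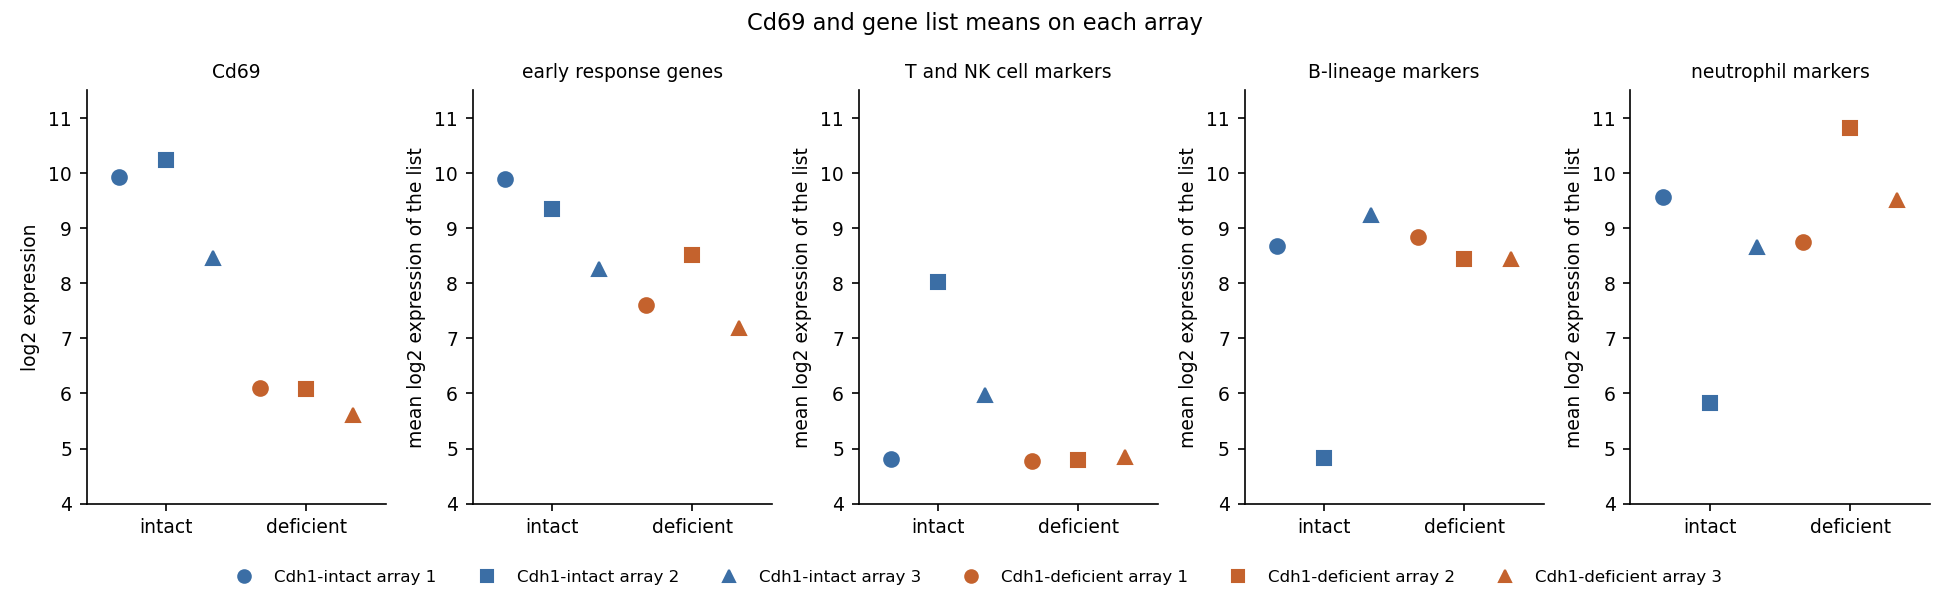
Log2 level of Cd69 and mean log2 level of 4 gene lists (vertical axes) on each array, with symbols as array numbers. Cdh1-intact array 1 has Cd69 at 9.93 with a T and NK mean of 4.81, and Cdh1-intact array 2 has the highest T and NK mean (8.02) and the lowest B-lineage mean (4.83).

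**Figure D5:**
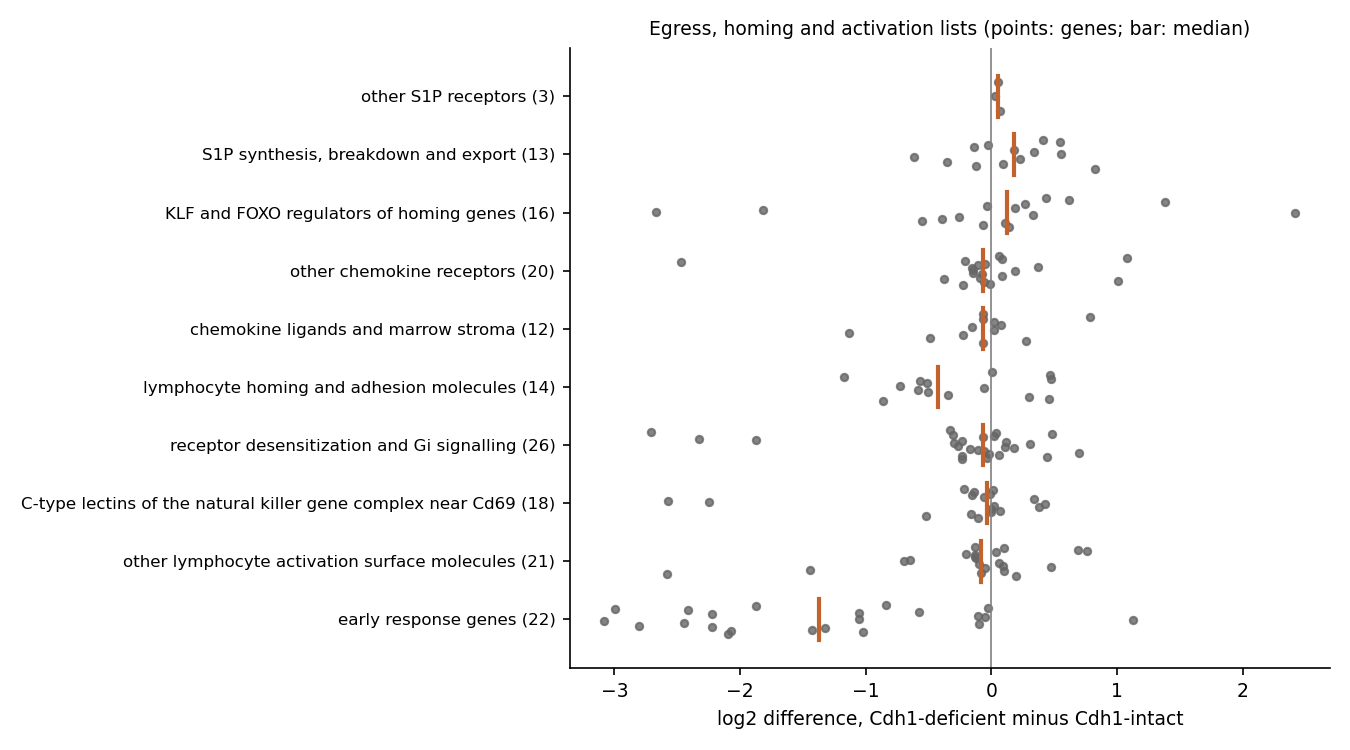
Log2 differences (horizontal axis, Cdh1-deficient minus Cdh1-intact) of the 165 measured genes around Cd69 and its partners, each point a gene and each bar a list median, with the number of genes in brackets. The early response list has its median at -1.37, the homing and adhesion list at -0.43, and the other 8 lists between -0.08 and 0.18.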

How the data were processed

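Expression was measured on 6 one-colour Affymetrix arrays, 1 per moribund mouse. RMA was the authors' method for the deposited log2 values, as the submitters' processing notes record without a version. This aligns the array distributions, so a change of total RNA per cell cannot be seen, and no detection call was used. Array medians were 5.07 to 5.13. The number of arrays limits the precision. Of 45101 probe sets 34945 carried 1 symbol in the 2016 platform annotation, and each of 18193 genes was read from its probe set with the highest mean. Groups and replicate numbers came from the sample titles.

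The comparison used limma 3.58.1 under R 4.3.3 (lmFit and eBayes, two-sided, Benjamini-Hochberg over all genes), without a filter on level, and the fit was tested on simulated data. Differences are Cdh1-deficient minus Cdh1-intact with the moderated standard error (SE). The genes, lists and alternatives were chosen with earlier results of these data known. The genes named are some of those with the smallest p in each list and genes that act directly with the 7. Others (Mef2c, Mef2d, Mapk7, Map2k5, Gnai2, Foxo1, Cd83, Fosl2, Klrb1a) were chosen after their values were seen. Examples of the markers are also named. Promoter sequences are RefSeq's in GRCm38.p6, and 3 of the 7 genes matched that table. Some listed genes were not analysed here. The alternatives were renormalization, median centring, the mean of probe sets, shared-target probe sets left out, a filter on level, trend and robust estimation, array weights, the replicate number as a block, and each array left out.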

Additional observations from a re-analysis of the deposited data

How the results depend on the processing

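Cd69 kept its direction in all 14 alternatives, and its difference ran from -4.16 (without Cdh1-intact array 3) to -3.27 (without Cdh1-intact array 2). The other 6 genes also moved by less than their spread within groups in each alternative. Leaving out an array cannot move a difference by more than that spread in groups of 3, so this does not show stability. The signs of these 6 genes turned in some alternatives. S1pr1, S1pr4 and Ccr7 turned in 1 alternative each, without Cdh1-intact array 2. Klf2 turned in 3 (highest value 0.23, without Cdh1-intact array 1), Cxcr4 in 2 (highest 0.06, without the same array) and Cxcr5 in 2. The cause was not tested. The count of genes past an adjusted p of 0.05 in limma was 0 in all 14 alternatives, for all genes and for the 165 pathway genes, with 442 to 1751 of all genes at an unadjusted p under 0.05. The lowest adjusted p was 0.0536 with Cdh1-deficient array 2 left out, 0.0596 with Cdh1-intact array 1 and 0.0762 with Cdh1-intact array 3 left out, and 0.526 to 0.999 in the others. With the replicate number as a block the Cd69 difference was -3.62 (SE 0.30) and 0 genes passed. The labels do not say whether same-numbered arrays were paired. Their deviations from the group means correlated at -0.14, 0.01 and 0.04, which cannot decide this with 3 arrays per group.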

Other observations

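Neighbours of Cd69 in the natural killer gene complex were read for the same groups. Of 18 measured C-type lectin genes 11 were lower and 7 higher in Cdh1-deficient cells, beside 49.1% of all genes lower. The median was -0.04, or the same when rounded with 10 lower without Cdh1-intact array 2. Of the 18, 0 separated the groups, beside 5.09% (lower) and 6.65% (higher) of all genes. Klrb1b and Klrb1a, receptors of the NKR-P1 family, read 10.61 and 9.88 on Cdh1-intact array 2, against 2.93 to 3.53 on the other 5 arrays. The NK receptor genes Klrd1 and Ncr1 lay at 2.86 to 3.33 and at 4.02 to 4.26 on all 6 arrays. Tbx21, the type 1 lymphocyte transcription factor, read 10.08 on Cdh1-intact array 2, with 3.69 to 3.92 on the rest.

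Cdh1-intact array 1 had high levels of some macrophage and erythroid transcripts beside its high Cd69. The monocyte and macrophage markers averaged 7.63 there and 4.99 to 6.47 elsewhere, and the erythroid markers 7.08 against 4.92 to 5.91. Of these markers Marco, Cd68, Ly86, Epor and Hba-a1 were not highest on that array. The globin gene Hba-a1 lay near the floor of the measurement on all arrays. The genes that follow were chosen from those highest on Cdh1-intact array 1. The stromal and macrophage adhesion gene Vcam1 lay at 9.04 there and at 5.01 to 7.91 on the other arrays, and the complement gene C1qa at 7.63 against 4.50 to 5.33. The haem synthesis gene Alas2 lay at 9.31 there and at 4.82 to 5.61 elsewhere, and the red cell anion exchanger gene Slc4a1 at 9.70 against at most 8.40. Their part in the Cd69 value of that array was not tested.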
